A study of Ovis aries with 6 samples.

Results

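Matrix proteases and their inhibitors were examined in the longissimus muscle of sheep of 2 breeds, Small Tail Han (STH) and Qianhua Mutton Merino (QHMM). The members were all genes of the count table named MMP, ADAM or TIMP with a number, or ADAMTS, which gave 64 of 23144 genes. They were 20 matrix metalloproteinases (MMPs), 18 ADAMs, 18 ADAMTS proteases, 5 ADAMTS-like genes (ADAMTSL) and 3 tissue inhibitors of metalloproteinases (TIMP1, TIMP2 and TIMP3).

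The animals were females aged 1 year, 3 QHMM and 3 STH, raised in the same environment with free access to food and water. The paper describes no treatment, but it states that live weight was measured after a fast before slaughter. From each animal, 1 poly(A) RNA library was read on an Ion Proton instrument. QHMM was bred for meat and wool and STH is a local breed, and the question was which genes differ between their muscles. The totals on genes ran from 10982191 to 14334544 reads, and the members took 0.0495% to 0.0797% of them (95% Wilson intervals from 0.0483% to 0.0812%, which cover counting error only). The muscle genes ACTA1, CKM, MYLPF and DES were abundant in all 6 libraries, and ACTA1 had a mean RPKM (reads scaled by gene length and library total) of 54473. TNNT3, another muscle gene, was listed at 0 in every library, so that a listed 0 in this table need not mean that the gene is silent.

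MMPs and ADAMTS proteases are zinc enzymes that are secreted or held at the cell surface and cut collagens, proteoglycans and glycoproteins of the extracellular matrix. ADAMs sit in the membrane and mainly cut other membrane proteins, releasing growth factors and receptor domains, and some ADAMs lack the zinc-binding motif and act in adhesion. TIMPs bind the active site of these enzymes and block it, and ADAMTSL proteins resemble ADAMTS proteases without the protease domain. In skeletal muscle these genes are known for remodelling the connective tissue around the fibres, for the passage of satellite cells through the basement membrane and for myoblast fusion.

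Measured per length, the inhibitors and MMP2 dominated the set. TIMP2 had the highest mean RPKM of the members (119.8), followed by TIMP3 (64.3) and MMP2 (48.0), and these 3 genes made up 62.1% of the summed mean RPKM of the 64. The next were ADAMTS1 (18.9), TIMP1 (17.1), ADAMTSL4 (15.9), ADAM15 (14.04), MMP14 (11.2), MMP15 (7.80) and ADAMTS4 (6.16). The ranges of neighbours in this order mostly overlapped: over the 6 libraries, TIMP2 ranged from 78.5 to 163 RPKM, TIMP3 from 43.4 to 111 and MMP2 from 32.7 to 64.4. The gene lengths behind these values were 538 bases for TIMP2 and 636 for TIMP3, against 1868 for MMP2 and 4165 for ADAMTS1, and the order of levels depends on these gene models. Of the 64 members, 26 reached 1 RPKM in 3 or more libraries and 18 in all 6.

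**Figure D1:**
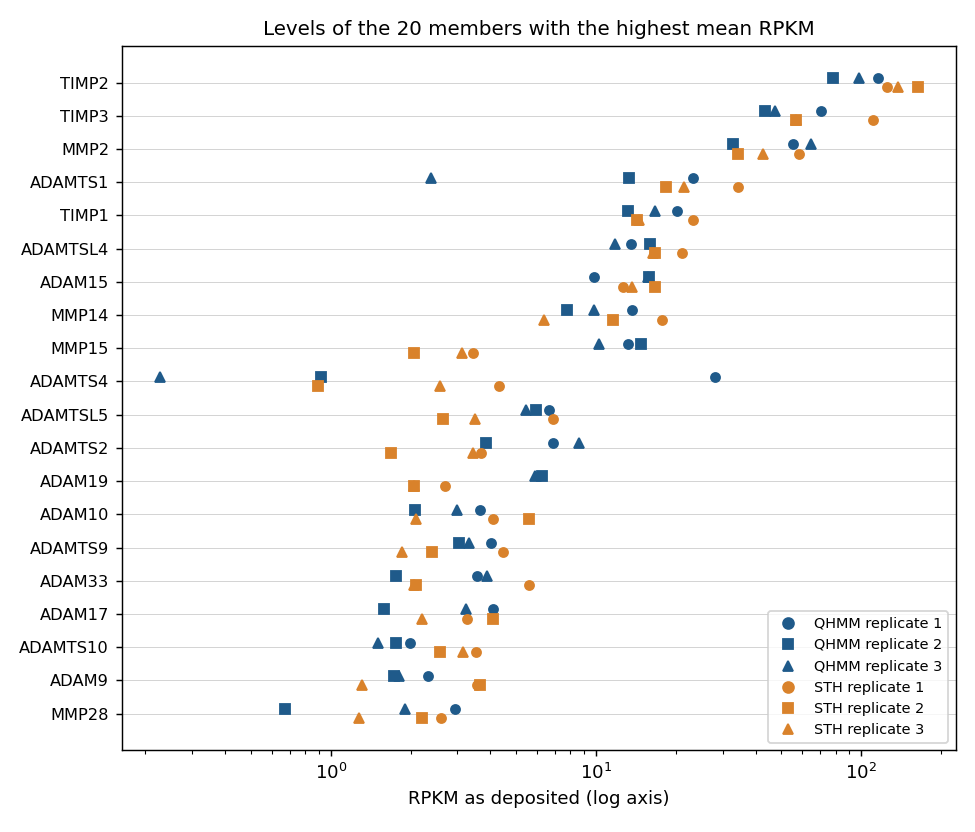
RPKM as deposited (log axis) of the 20 members with the highest mean RPKM, with 1 point per library, QHMM in blue and STH in orange, and the replicates marked by shape. TIMP2, TIMP3 and MMP2 lie at the top, the STH points of MMP15 lie to the left of all its QHMM points, and QHMM replicate 3 of ADAMTS1 and QHMM replicates 1 and 3 of ADAMTS4 lie far from the other points of their genes.

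For the comparison of the breeds, counts were tested with edgeR's quasi-likelihood F test. A gene was called when its FDR, the Benjamini-Hochberg adjusted p over all 12506 tested genes, was below 0.05 and it differed by more than 1.5-fold. Of the 64 members, 33 passed the filter for low counts and 31 did not. In STH vs. QHMM, 3 of the 33 were called, MMP15, ADAM19 and ADAMTS16, all lower in STH, and none was called higher. The 3 made up 9.09% of the tested members, where 3.45% of all tested genes were called, 1.83% lower and 1.62% higher in STH. The median log2 fold change of the tested members was -0.09, with 12 above and 21 below 0, beside 0.02 over all tested genes, with 6480 above and 6026 below. The libraries of the breeds did not overlap in 8 of the 33 members (24.2%), 6 lower and 2 higher in STH, and in 24.7% of all tested genes, so that the share of members without overlap was near that of the other genes. In all, 29 of the 33 reached the minimum count of the filter in each library, ADAM12 reached it in all QHMM but not all STH libraries and ADAMTS4 the reverse.

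**Figure D2:**
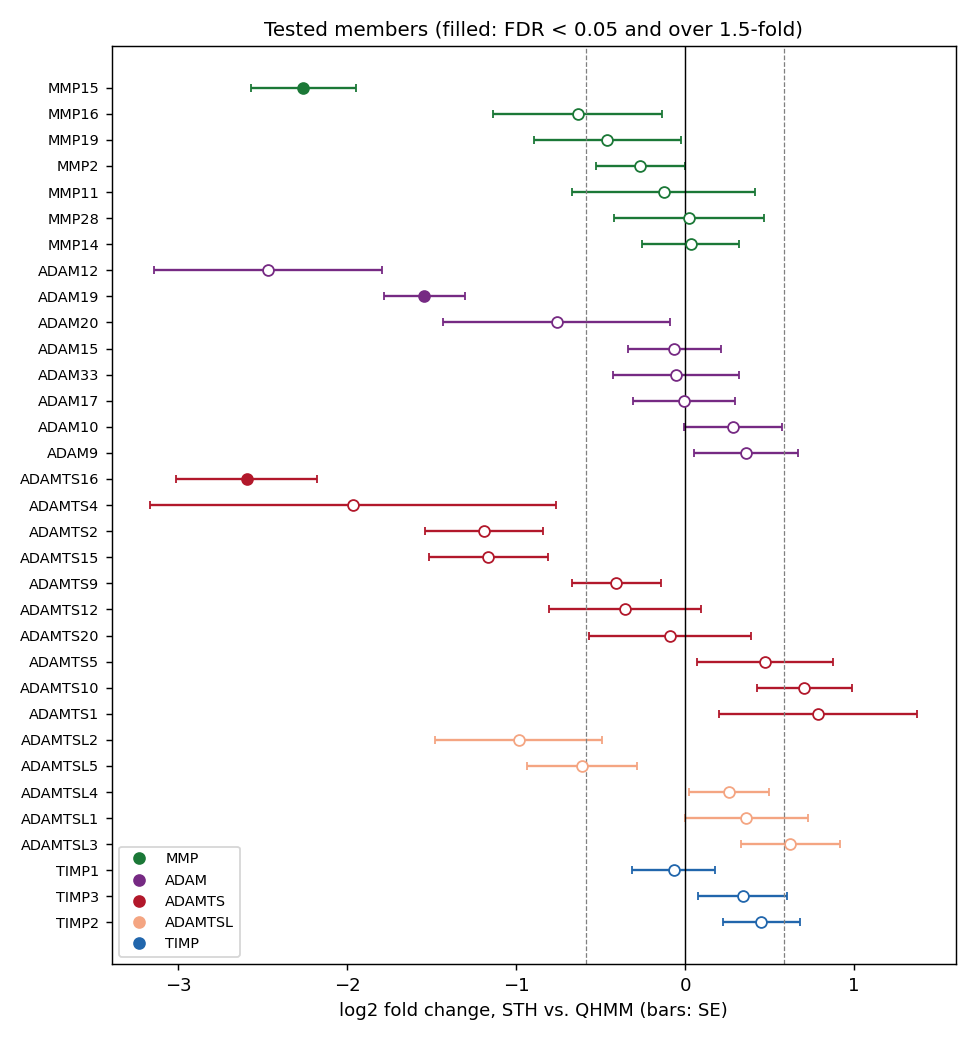
Log2 fold changes in STH vs. QHMM of the 33 tested members from the edgeR fit, grouped and coloured by family, with bars for the SE, dashed lines at 1.5-fold either way, and filled points for the 3 called members. MMP15, ADAM19 and ADAMTS16 lie at -2.26, -1.54 and -2.59, and ADAMTS4 has the widest bar, with an SE of 1.20.

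Among the membrane-type MMPs, which are anchored at the cell surface, MMP15 (MT2-MMP) was lower in STH. It had 413, 548 and 317 TMM-normalized counts (counts scaled to a common effective library size) in replicates 1, 2 and 3 of QHMM and 91.5, 59.2 and 116 in those of STH. The lowest QHMM library lay well above the highest STH library. The mean fell from 426 ± 116 (SD, n = 3) to 89.0 ± 28.6 (SD, n = 3), 4.78-fold lower in STH (edgeR, log2 fold change -2.26, SE 0.31, FDR = 0.00626). Its relative MMP14 (MT1-MMP), which activates the proenzyme of MMP2, had 311, 211 and 219.9 in QHMM and 343, 243 and 173 in STH. These overlapped. The log2 fold change of 0.03 (SE 0.29) turned negative, to as low as -0.27, when QHMM replicate 2, QHMM replicate 3 or STH replicate 1 was left out. Per length, the ratio of MMP15 to MMP14 within a library was 0.966, 1.89 and 1.05 in QHMM and 0.194, 0.177 and 0.490 in STH. MMP15 thus stood near or above MMP14 in each QHMM animal and below it in each STH animal. MMP16 had a log2 fold change of -0.64 (SE 0.50) and its breeds overlapped, and MMP17, MMP24 and MMP25 had at most 19 counts in any library and were not tested.

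MMP2 (gelatinase A), which degrades denatured collagen and basement membrane collagen, carried most of the MMP signal. It had 1335, 936 and 1524 normalized counts in QHMM and 1185, 759 and 1218 in STH, and the breeds overlapped (edgeR, log2 fold change -0.26, SE 0.27, FDR = 0.639). In the libraries it made up 56.1% to 75.5% of the summed RPKM of the 20 MMPs. The other gelatinase, MMP9, known from neutrophils and macrophages, had 3, 4 and 12 counts in QHMM and 6, 3 and 5 in STH and was not tested. The neutrophil markers were also low, with summed normalized counts of S100A8, S100A12 and CSF3R between 21.5 and 59.4 in QHMM and between 29.1 and 51.9 in STH. The macrophage and leukocyte markers PTPRC, CD68, CSF1R and CD14 were higher, with sums of 928 to 1245 in QHMM and 718 to 1232 in STH. The part of either cell type in the MMP9 counts was not tested.

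The collagenases, stromelysins and most secreted MMPs were barely detected. MMP8, MMP12, MMP13 and MMP20 had 0 reads in all 6 libraries, which allows shares of up to 2.09e-05% to 2.73e-05% of the reads of a library, taking 3 counts per library as the limit of a count of 0. That limit holds only if reads of these genes could be counted here, and the muscle gene TNNT3 was listed at 0 as well. MMP1, the interstitial collagenase, had no read in QHMM and 3, 1 and 2 in STH, MMP3 and MMP7 had 1 read each in all, and MMP27 had 11. In the RefSeq gene table of the sheep assembly ARS-UI_Ramb_v3.0, MMP13, MMP12, MMP1, MMP8, MMP27, MMP20 and MMP7 lie close together on 1 chromosome, and these 7 genes had 18 reads together in all 6 libraries. MMP23B had 2 to 15 counts in a library and was not tested. MMP11, MMP19 and MMP28 were the secreted MMPs beside MMP2 that passed the filter, with log2 fold changes of -0.13 (SE 0.54), -0.46 (SE 0.44) and 0.02 (SE 0.44), and the breeds overlapped in each.

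Of the ADAMs with a zinc motif, ADAM19 (meltrin beta), which releases neuregulins from the membrane, was lower in STH. It had 225, 274 and 214 normalized counts in QHMM and 84.0, 70.0 and 90.3 in STH. Replicates of each breed lay close together, with a highest to lowest ratio of 1.28 in QHMM and 1.29 in STH, and the breeds were far apart. The mean fell from 237 ± 31.8 (SD, n = 3) to 81.4 ± 10.4 (SD, n = 3), 2.91-fold lower in STH (edgeR, log2 fold change -1.54, SE 0.24, FDR = 0.0123). ADAM12 (meltrin alpha), known from fusing myoblasts and regenerating muscle and from early fat cell formation, had 69.3, 22.4 and 30.7 in QHMM and 13.3, 1.08 and 6.77 in STH. All STH libraries lay below all QHMM libraries, but these counts were low, the gene passed the filter through its QHMM libraries, and it was not called (edgeR, log2 fold change -2.47, SE 0.67, FDR = 0.0743).

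The general sheddases showed no such separation. ADAM10, which cuts Notch receptors, had 264, 178 and 212 normalized counts in QHMM and 249, 368 and 179 in STH (log2 fold change 0.28, SE 0.29). ADAM17, the TNF-alpha converting enzyme, had a log2 fold change of -0.01 (SE 0.30), ADAM9 of 0.36 (SE 0.31) and ADAM33 of -0.05 (SE 0.37), and the breeds overlapped in all 4 genes. ADAM15, the most abundant ADAM per length, had 331, 631 and 517 in QHMM and 358, 513 and 543 in STH. The difference, -0.06 on the log2 scale (SE 0.27), changed sign with limma-trend on RPKM (0.071 or 0.077), where the median of all genes was shifted up to 0.12 or 0.14. ADAM20 passed the filter at 3.33 to 17.4 normalized counts, and ADAM21 and ADAM28 had at most 5 counts in a library.

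None of the 8 ADAMs without a zinc motif passed the filter. ADAM7, ADAM18 and ADAM29 had no read and ADAM2 had 1, while ADAM22, ADAM23 and ADAM32 had at most 22 counts in a library. ADAM11, which is known from neurons, was the exception in its pattern, with 20, 17 and 9 counts in QHMM and 1, 0 and 1 in STH. Scaled by effective library size, its summed count in QHMM was 23.6 (95% exact interval 6.18 to 201) times that in STH, an interval of counting error only that leaves out the spread between animals, for a gene chosen after its values were seen. Such ratios were computed only for members with few reads in STH and more in QHMM. They were thus bound to lie above 1 and are no test of a difference.

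The procollagen N-proteinase ADAMTS2 trims the amino-terminal propeptide from fibrillar procollagens before they assemble. It had 417, 277 and 510.4 normalized counts in QHMM and 188, 93.7 and 247 in STH. Each STH library lay below each QHMM library, though the closest pair differed little, and the gene was not called (edgeR, log2 fold change -1.19, SE 0.35, FDR = 0.0935), while DESeq2 called it with an adjusted p of 0.0160. Its relatives ADAMTS3 and ADAMTS14 had 1 to 13 counts and were not tested. The enzyme that trims the other end, BMP1, was lower in every STH library as well (179.6, 100.1 and 278 against 489, 287 and 391 in QHMM) and was not called (edgeR, log2 fold change -1.07, SE 0.35, FDR = 0.126). COL1A1, the alpha-1 chain of type I collagen and a substrate of both, had 8612, 6843 and 11246 in QHMM and 4470.4, 1478 and 4926 in STH (edgeR, log2 fold change -1.30, SE 0.41, FDR = 0.113).

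ADAMTS16 had the largest log2 fold change of the called members. It had 213, 119 and 106 normalized counts in QHMM and 34.9, 11.8 and 24.8 in STH, and the lowest QHMM library was above every STH library. The mean fell from 146 ± 58.3 (SD, n = 3) to 23.9 ± 11.6 (SD, n = 3), 6.04-fold lower in STH (edgeR, log2 fold change -2.59, SE 0.42, FDR = 0.0130). Its close relative ADAMTS18 had 7, 7 and 17 counts in QHMM and 0, 2 and 0 in STH and did not pass the filter, with a summed count in QHMM of 15.9 (95% exact interval 4.05 to 137) times that in STH. That interval covers counting error and not the spread between animals, and ADAMTS18 was chosen after its values were seen, by the rule given for ADAM11. ADAMTS10, a protease of fibrillin microfibrils, went the other way, with 77.4, 81.4 and 57.3 in QHMM and 116, 91.5 and 146 in STH. The STH libraries lay above the QHMM libraries, but the difference was not past the threshold (edgeR, log2 fold change 0.71, SE 0.28, FDR = 0.198). ADAMTS12 overlapped between the breeds, with a log2 fold change of -0.36 (SE 0.45). ADAMTS6, ADAMTS13 and ADAMTS19 had 0 to 13 counts in a library and ADAMTS17 had 5 to 41, and these were not tested.

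**Figure D3:**
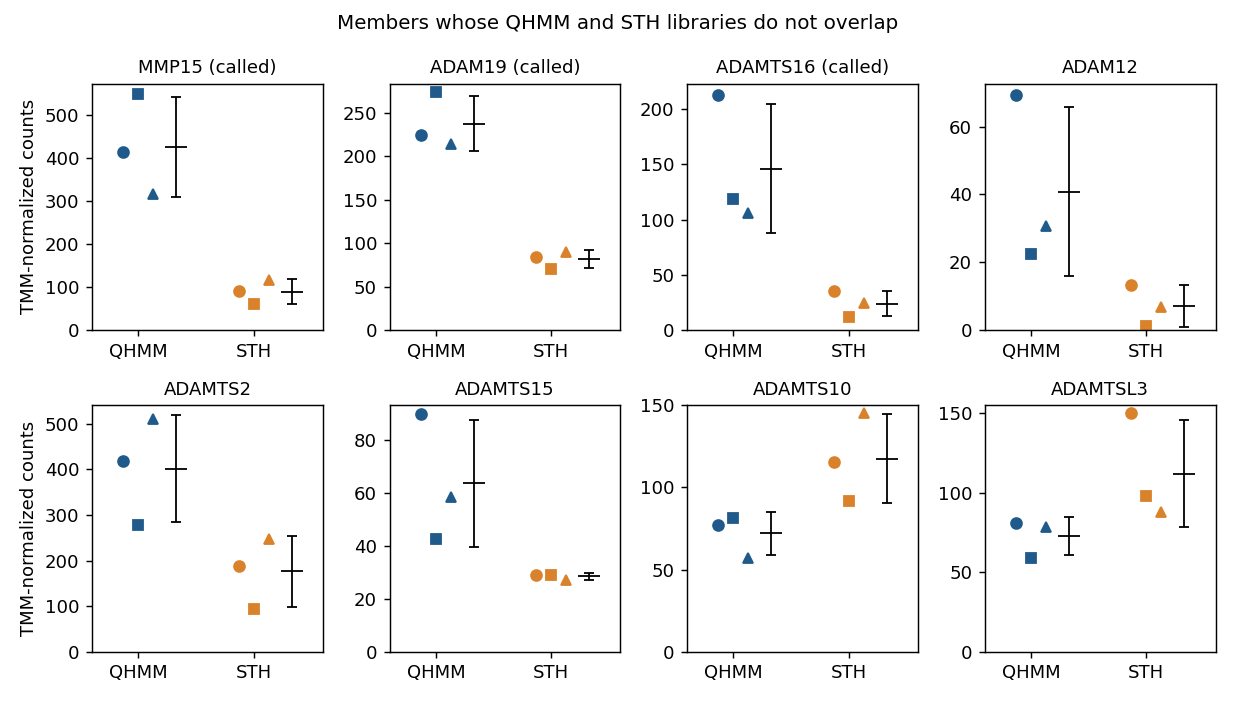
TMM-normalized counts of the 8 members whose QHMM (blue) and STH (orange) libraries do not overlap, with replicates 1, 2 and 3 as circle, square and triangle from left to right, and mean ± SD (n = 3) as the black bar. MMP15, ADAM19 and ADAMTS16 are called, ADAM12, ADAMTS2 and ADAMTS15 are lower in STH without a call, and ADAMTS10 and ADAMTSL3 are higher in STH without a call.

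The ADAMTS proteoglycanases cut versican and aggrecan, the large proteoglycans of the matrix, and none of the 6 that passed the filter was called. ADAMTS15 had 90.0, 42.5 and 58.3 normalized counts in QHMM and 29.1, 29.1 and 27.1 in STH. The STH values were nearly equal and the QHMM values all higher, and the FDR was above the threshold (edgeR, log2 fold change -1.16, SE 0.35, FDR = 0.101). ADAMTS8, its neighbour in the RefSeq gene table, had 28, 7 and 28 counts in QHMM and 0, 0 and 2 in STH and did not pass the filter. Its summed count in QHMM was 32.4 (95% exact interval 8.59 to 273) times that in STH, where the interval covers counting error and not the spread between animals, and the gene was chosen after its values were seen, by the rule given for ADAM11. ADAMTS5 and ADAMTS20 overlapped between the breeds, as did ADAMTS9, with log2 fold changes of 0.47 (SE 0.40), -0.09 (SE 0.48) and -0.41 (SE 0.26).

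ADAMTS4 and ADAMTS1 varied far more between animals of 1 breed than the other abundant members. ADAMTS4 had 1034, 40.1 and 8.18 normalized counts in QHMM and 134, 30.1 and 113 in STH. QHMM replicate 1 was 126 times QHMM replicate 3, and both STH replicates 1 and 3 lay above the other 2 QHMM libraries. Its log2 fold change of -1.97 (SE 1.20) became 1.94 without QHMM replicate 1, so that 1 library set its sign. ADAMTS1, the most abundant ADAMTS per length, had 1243, 853 and 126 in QHMM and 1559, 904 and 1370.2 in STH. QHMM replicate 3 was low while the other 5 libraries lay between 853 and 1559, and the log2 fold change of 0.79 (SE 0.59) was 0.29 without that library. Of the 5 smooth muscle and pericyte markers, ACTA2 and TAGLN were also lowest in QHMM replicate 3, while MYH11 was lowest in QHMM replicate 2, PDGFRB in QHMM replicate 1 and RGS5 in STH replicate 3. ACTA2 had 2631, 1479 and 921 in QHMM and 2569.5, 1258 and 1957 in STH, and TAGLN had 1299.8, 852 and 362 in QHMM and 1082, 789 and 1012 in STH. The sum of the 5 ranged from 3401 to 7880 in QHMM and from 4563 to 7368 in STH, and none of the 5 was called. Their part in the ADAMTS1 values was not tested.

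The ADAMTSL genes all passed the filter and none was called. ADAMTSL4, which binds fibrillin microfibrils, was the most abundant, with 721, 1011 and 617 normalized counts in QHMM and 952, 819 and 1036 in STH, and its breeds overlapped (edgeR, log2 fold change 0.26, SE 0.24, FDR = 0.603). ADAMTSL3 had 81.0, 59.0 and 78.8 in QHMM and 151, 98.0 and 88.0 in STH, higher in each STH library but not past the threshold (edgeR, log2 fold change 0.62, SE 0.29, FDR = 0.277). ADAMTSL2, which binds a latent TGF-beta binding protein, had 61.2, 43.6 and 14.3 in QHMM and 17.5, 22.6 and 20.3 in STH, and QHMM replicate 3 lay below all STH libraries (edgeR, log2 fold change -0.99, SE 0.50, FDR = 0.310). ADAMTSL5 had 127, 134 and 102 in QHMM and 111, 46.3 and 79.0 in STH (edgeR, log2 fold change -0.61, SE 0.33, FDR = 0.339), and ADAMTSL1 a log2 fold change of 0.36 (SE 0.36). Both overlapped.

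None of the 3 inhibitors was called. TIMP2, which inhibits MMPs and also takes part with MMP14 in activating MMP2, had 804, 646 and 671 normalized counts in QHMM and 733, 1038 and 1133 in STH. STH replicates 2 and 3 were above all QHMM libraries and STH replicate 1 was within their range (edgeR, log2 fold change 0.45, SE 0.23, FDR = 0.314). TIMP3, which binds to the matrix and inhibits MMPs, ADAM17 and several ADAMTS proteases, had 579, 422 and 381 in QHMM and 767, 428 and 554 in STH (edgeR, log2 fold change 0.34, SE 0.27, FDR = 0.532). TIMP1 had 207, 160.4 and 168 in QHMM and 201, 133 and 176 in STH. The difference, -0.07 on the log2 scale (SE 0.25), turned to 0.035 or 0.036 with limma-trend on RPKM. All 3 overlapped between the breeds in normalized counts. TIMP1 and TIMP3 overlap the synapsin genes SYN1 and SYN3 in the RefSeq gene table, and these had 14 to 39 and 1 to 5 counts in a library, against 124 to 242 for TIMP1 and 358 to 922 for TIMP3. TIMP1 also overlaps ARAF there, which had 1232 to 1868 counts, and TIMP2 overlaps CEP295NL, which was not analysed here. ADAM17, with 85 to 240 counts, overlaps IAH1 (332 to 466) and LOC101117063 (104 to 233). Whether the counting used strand was not stated, so that reads of overlapping genes may not be told apart.

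Set against each other within a library, the summed RPKM of the 20 MMPs was 0.442, 0.432 and 0.560 of the summed RPKM of the 3 TIMPs in the QHMM libraries and 0.341, 0.227 and 0.270 in STH. The ratio was thus lower in each STH library than in each QHMM library. The MMP sums themselves overlapped, at 91.3, 58.4 and 91.0 RPKM in QHMM and 88.2, 53.2 and 56.5 in STH. The 3 TIMPs summed to 207, 135 and 162 RPKM in QHMM against 259, 234 and 209 in STH, with no overlap but a narrow gap between the highest QHMM and the lowest STH library. In normalized counts the TIMP sums were 1219 to 1590 in QHMM and 1600 to 1863 in STH, again without overlap but with a narrow gap. Of all tested genes, 24.7% did not overlap between the breeds in normalized counts. TIMP2 by itself did not overlap in RPKM (116, 78.5 and 98.5 in QHMM and 125, 163 and 138 in STH) but did in normalized counts, and TIMP1 and TIMP3 overlapped on both scales. RPKM values are scaled by library totals only. With limma-trend on RPKM, the median log2 fold change of all tested genes was shifted up in STH, to 0.12 or 0.14. Without MMP15, the ratio was 0.378, 0.323 and 0.497 in QHMM and 0.327, 0.218 and 0.255 in STH, and the breeds overlapped. The ratio of MMP2 to TIMP2 overlapped too, at 0.478, 0.417 and 0.654 in QHMM and 0.466, 0.211 and 0.310 in STH. The size of these ratios depends on the gene lengths behind the RPKM, which were 538 bases for TIMP2 and 636 for TIMP3 against 1868 for MMP2. These sums and ratios are given as a description without a test, and transcript levels are not enzyme activities.

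**Figure D4:**
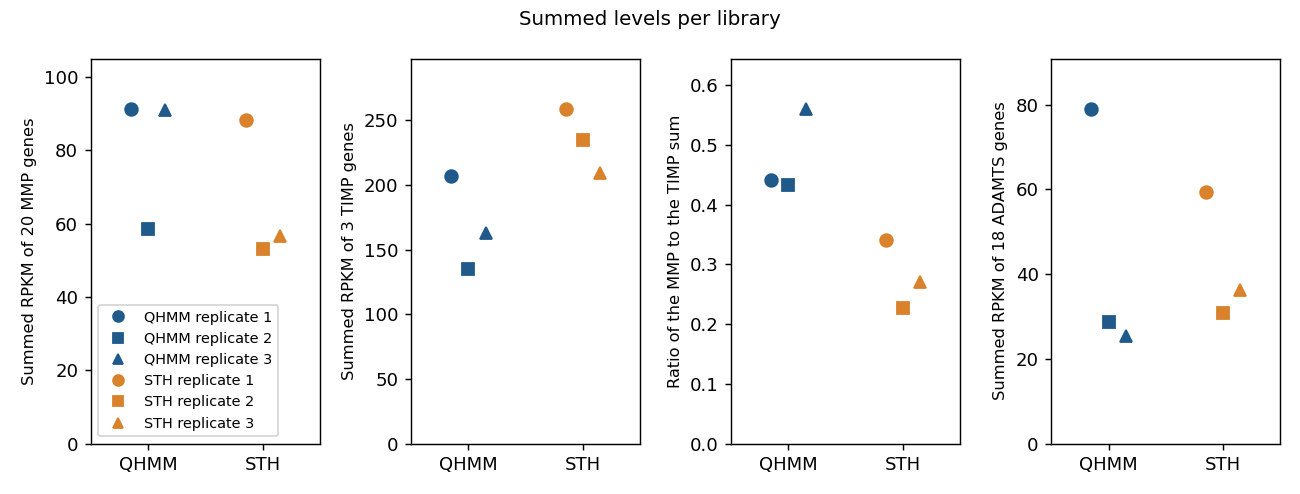
Summed RPKM per library of the 20 MMP genes, the 3 TIMP genes and the 18 ADAMTS genes, and the ratio of the MMP to the TIMP sum, with QHMM in blue, STH in orange and the replicates marked by shape. The ratio is 0.432 to 0.560 in QHMM and 0.227 to 0.341 in STH, while the MMP sums of the breeds overlap and QHMM replicate 1 has the highest ADAMTS sum, 79.0.

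In muscle tissue, a gene's lower count cannot tell fewer cells of a type from less RNA per cell. The adipocyte markers ADIPOQ, PLIN1, LEP and CIDEC were all called lower in STH (4 of 4), with summed normalized counts of 1401 to 4490 in QHMM and 532 to 599 in STH and log2 fold changes from -4.21 to -2.13. They moved in the same direction as MMP15, ADAM19 and ADAMTS16, and their part in these differences was not tested. ADIPOQ had 3221, 1109.8 and 1685 in QHMM replicates 1, 2 and 3. Its highest value fell in replicate 1, as those of ADAMTS16 and ADAM12 did, while MMP15 and ADAM19 were highest in replicate 2. A highest QHMM value in replicate 1 was not particular to these genes, as TIMP2, LUM, ACTA2 and PTPRC also had theirs there. Of the 5 fibroblast markers with values (PDGFRA, COL1A1, DCN, LUM and DPT), none was called, and their sums were 11784 to 18563 in QHMM and 5682 to 11538 in STH. COL1A1, the most abundant in these sums, was the only 1 of the 5 without overlap between the breeds. The log2 fold changes were -1.30 for COL1A1, -0.46 for PDGFRA, -0.45 for DCN, -0.89 for LUM and 0.68 for DPT. Of the endothelial markers PECAM1, CDH5 and VWF none was called, with sums of 7395 to 7668 and 7962 to 9233. VWF was higher in each STH library (log2 fold change 0.40), while PECAM1 (0.04) and CDH5 (-0.22) overlapped. Of the leukocyte markers PTPRC, CD68, CSF1R and CD14 none was called either, with sums of 928 to 1245 and 718 to 1232. The satellite cell markers PAX7 and MYF5 summed to 25.9 to 91.8 and 24.8 to 84.0, COL2A1 and COMP of cartilage and tendon to 14.2 to 67.5 and 15.1 to 51.9, and the blood marker ALAS2 had at most 9.69.

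Beyond the members, 53 other genes of matrix proteolysis were listed, 46 had a value and 40 were tested. edgeR called 0 of the 40, 8 had an unadjusted p below 0.05, and DESeq2 called 4 (FURIN higher, BMP1, COL1A1 and PAPLN lower in STH). Of all tested genes, 19.2% had an unadjusted p below 0.05 and DESeq2 called 7.78%. The median log2 fold change of the 40 was -0.24, with 12 above and 28 below 0. FURIN, which activates the proforms of MMP14, MMP15 and many ADAMs, had 237, 285 and 236 normalized counts in QHMM and 307, 790.1 and 565 in STH, higher in each STH library (edgeR, log2 fold change 1.13, SE 0.31, FDR = 0.0782). PAPLN, a matrix protein related to ADAMTS proteases, had 111, 95.5 and 98.2 in QHMM and 59.0, 52.7 and 45.1 in STH (edgeR, log2 fold change -0.95, SE 0.26, FDR = 0.0730).

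The regulators of the plasminogen system, whose protease plasmin can activate MMPs, overlapped between the breeds in all 5 genes tested. PLAU (urokinase) had 588, 321 and 236 normalized counts in QHMM and 279, 293 and 231 in STH (edgeR, log2 fold change -0.51, SE 0.32, FDR = 0.414), and SERPINE2, which inhibits it, had a log2 fold change of 0.48 (SE 0.33). RECK, a membrane-anchored inhibitor of MMP2, MMP9 and MMP14, had 78.3, 40.1 and 79.8 in QHMM and 75.7, 59.2 and 45.1 in STH (edgeR, log2 fold change -0.14, SE 0.34, FDR = 0.872). Among 8 tested partners of ADAM10 and ADAM17, the log2 fold changes ranged from -0.94 to 0.19. All 4 tested collagen substrates and all 6 tested proteoglycan and glycoprotein substrates had log2 fold changes below 0, with medians of -0.53 and -0.47. They ranged from -1.30 to -0.04 and from -0.89 to -0.23, and none was called. The breeds did not overlap in 2 of the 4 and 1 of the 6, beside 24.7% of all tested genes. Of the 12506 tested genes, 6026 were below 0.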

How the data were processed

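Reads of 6 longissimus muscle libraries, 3 QHMM and 3 STH with 1 library per animal, were filtered, mapped to the sheep genome (Oar 3.1) and kept where uniquely mapped by the authors, who deposited raw counts per gene without normalization. The aligner, the counting program and its use of strand are not given in the sources used here. The authors also deposited RPKM values, which divide these counts by gene length and by all reads on genes in a library (the implied lengths were the same in all libraries, with a relative spread of at most 5.73e-06). When the tables were joined, 25 gene names that had become dates were left out.

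Counts were tested in R 4.3.3 with edgeR 4.0.16 (TMM, filterByExpr, glmQLFit and glmQLFTest, two-sided, breed as the only term), with FDR below 0.05 and a change of over 1.5-fold, the thresholds of the study, whose program EBSeq was not run. Each SE is the absolute log2 fold change divided by the square root of F. Normalized counts are counts per effective library size times the median library total. All 64 members were kept and no p was adjusted over them alone. Alternatives were DESeq2 1.42.0, upper-quartile normalization, no filter, limma-trend (limma 3.58.1) on log2(RPKM + 1) and log2(RPKM + 0.1) for genes with at least 1 RPKM in at least 3 libraries, and on log2(RPKM + 1) also without that filter, a replicate block, no minimum fold change, and leaving out each library. The methods were tested on simulated counts.

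The members, roles and gene lists were chosen with earlier results of these data known. Members are given with values in every library if called, among the 10 with the highest mean RPKM or the 12 with the smallest p, or a TIMP. Of the other proteolysis genes, those called and SERPINE2, RECK, PLAU and BMP1 were named by rule. Others shown per library (MMP1, MMP9, MMP17, ADAM10, ADAM11, ADAM28, ADAMTS5, ADAMTS8, ADAMTS17 and ADAMTS18, and of the other genes ACTA2, TAGLN, ADIPOQ, COL1A1, FURIN, PAPLN and THBS1) were chosen after their values were seen. Of the members, 58 were matched by symbol to the RefSeq table, which was used for neighbours only. TIMP4 was not analysed here.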

Additional observations from a re-analysis of the deposited data

How the results depend on the processing

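MMP15, ADAM19 and ADAMTS16 stayed lower in STH under every alternative. MMP15 was called in all of them, and ADAM19 and ADAMTS16 in all but limma-trend without a filter, where their adjusted p was 0.0875 and 0.108. Of 33 tested members, 5 were called with DESeq2 and 5 with the replicate block (ADAM12 and ADAMTS2 in addition). Without a filter on low counts, 8 of 57 were called (ADAM11, ADAMTS8 and ADAMTS18 beyond those 5). Limma-trend on log2(RPKM + 1) without a filter called 1 of 57 (MMP15). With 1 library left out, 3 to 5 of 34 to 38 were called. There were 5 of 36 without STH replicate 1 (also ADAM11 and ADAM12) and 5 of 38 without STH replicate 3 (also ADAM11 and ADAMTS8). These settings thus tested different sets of members. ADAM11 and ADAMTS8 were not in the main fit. They reached its minimum count in 2 QHMM libraries and 0 STH libraries, so they entered only through the breed where they are high. Over all genes, 432 of 12506 tested genes were called, and 973 of the same 12506 with DESeq2. Without a filter 806 of 17668 were called, and 78 of 17644 with limma-trend without a filter. With 1 library left out, 131 to 535 of 12700 to 12893 were called (131 without QHMM replicate 1, 208 without QHMM replicate 2, 150 without QHMM replicate 3 and 183 without STH replicate 2). Limma-trend on log2(RPKM + 1), which tested 11140 genes, called 212 higher and 134 lower in STH, against 203 and 229 with edgeR. It moved the median log2 fold change of all genes to 0.12, or 0.14 with a pseudocount of 0.1. Of the other proteolysis genes, 4 of 40 were called with DESeq2, 3 of 45 without a filter (COL1A1, FURIN and THBS1) and 1 of 40 with the replicate block (COL1A1). With 1 library left out, 0 to 1 of 41 to 42 were called (THBS1 without QHMM replicate 1, FURIN without STH replicate 1). The cause of these differences was not tested.

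Of the 19 members given with values in every library by rule, 4 changed sign. The log2 fold change of ADAM15 was 0.071 with limma-trend on log2(RPKM + 1), with or without a filter, and 0.077 with log2(RPKM + 0.1), and lay between -0.30 and 0.16 with 1 library left out. TIMP1 was 0.035 and 0.036 with the same settings and between -0.22 and 0.063 with 1 library left out. ADAMTS4 was 0.11 with log2(RPKM + 0.1) and ranged from -2.53 to 1.94 with 1 library left out. MMP14 ranged from -0.27 to 0.25.

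The replicate numbers are shared by the breeds, but libraries with the same number were not consistently alike. The deviations from the breed means correlated at 0.240, -0.0562 and -0.150 between libraries with the same number over 12506 genes, and QHMM replicate 2 correlated best with STH replicate 3 (0.321). With 3 libraries per breed, these correlations cannot settle whether any libraries were paired. With the replicate block 457 genes were called, 342 of them among the 432. With 3 animals per breed, an exact permutation test of 1 gene cannot give a p below 0.1.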

Other observations

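Some members lie beside each other in the RefSeq gene table. ADAMTS5 and ADAMTS1 are neighbours and both overlapped between the breeds, but ADAMTS5 did not share the low value of ADAMTS1 in QHMM replicate 3, with 57.6, 24.8 and 37.8 normalized counts in QHMM and 72.3, 62.4 and 32.7 in STH. ADAMTS8 and ADAMTS15 are neighbours, and in both every QHMM library was above every STH library. Such a separation was found in 11.7% of all tested genes. ADAMTS15 was not called, and ADAMTS8 was not tested, had 0, 0 and 2 counts in STH and was chosen after its values were seen.

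THBS1, a secreted glycoprotein that binds several matrix proteases, was chosen after its values were seen. It had 2887, 899.9 and 320.2 normalized counts in QHMM and 2929, 5485 and 7106 in STH (edgeR, log2 fold change 1.92, SE 0.64, FDR = 0.133). Its lowest library was QHMM replicate 3, as for ADAMTS1, and ADAMTS4 was lowest there too. MMP17, a membrane-type MMP that did not pass the filter, had 8, 4 and 1 counts in QHMM and 19, 14 and 8 in STH, and ADAM28 had no read in QHMM and 3, 5 and 0 in STH. ADAMTS17 had 41, 8 and 13 counts in QHMM and 6, 5 and 5 in STH.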
